A study of Homo sapiens with 5 samples.

Results

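The 39 HOX genes of the HOXA, HOXB, HOXC and HOXD clusters were described in 5 libraries of SW480 cells, a line from a human colon adenocarcinoma. They were all gene names in the count files made of HOX, a cluster letter and a number, 39 of 26485 genes. Members were taken by name alone, with no measured value, though earlier results of these data were known when the HOX genes were chosen. Libraries of RNA 3′ ends had been made from 3 AKAP12 knockdown samples, which carried a guide RNA against AKAP12, and from 2 control samples, which carried control guides. All 5 came from cells expressing dCas9-KRAB, a Cas9 that cannot cut, joined to the KRAB repressor domain, and RNA was taken 48 hours after seeding. The sample titles call the groups shAKAP12 and shControl, whereas the treatment description names guide RNAs, which is followed here. AKAP12 is an anchoring protein that gathers kinases, among them protein kinase A, at the cell membrane. Nothing in the labels tells whether replicates were grown separately, so the p-values reflect the spread between these libraries, which may be technical, and a single line and target limit what the groups stand for.

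HOX genes encode homeodomain transcription factors that give cells their position along the body axis. They sit in 4 clusters, and the gene order in each cluster follows the order of use along the axis, so the position of a gene in its cluster, its paralog group, runs from 1 at the anterior end to 13 at the posterior end. The gut keeps a regional HOX pattern into adult life, and colon cells use central and posterior members. HOX proteins bind DNA together with TALE homeodomain partners of the PBX and MEIS families, and Polycomb and Trithorax proteins hold clusters off or on. In hg38 the genes spanned chromosome 7 from 27092995 to 27200106 for HOXA, chromosome 17 from 48529445 to 48728749 for HOXB, chromosome 12 from 53938792 to 54056030 for HOXC and chromosome 2 from 176092804 to 176190907 for HOXD. Groups 1 to 3 are called anterior here, 4 to 8 central and 9 to 13 posterior.

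Promoter sequences are shown for a break in the posterior HOXD cluster, where HOXD12 had no read in any library although HOXD11 and HOXD13 on both sides of it were expressed. HOXB1, the other gene without a read, is shown beside them. Each window runs from 250 bases before to 50 bases after the start site, 300 bases in all, from RefSeq (GRCh38.p14), written 5′ to 3′ on the strand of the gene. The windows were chr2:176107030-176107329 (plus strand) for HOXD11, chr2:176099545-176099844 (plus) for HOXD12, chr2:176092471-176092770 (plus) for HOXD13 and chr17:48530962-48531261 (minus) for HOXB1. Capitals mark matches on either strand to TATAAA, the TATA box, to TTTATNG, read by CDX proteins, or to TGATTNAT, read by PBX and HOX proteins together.
HOXD11: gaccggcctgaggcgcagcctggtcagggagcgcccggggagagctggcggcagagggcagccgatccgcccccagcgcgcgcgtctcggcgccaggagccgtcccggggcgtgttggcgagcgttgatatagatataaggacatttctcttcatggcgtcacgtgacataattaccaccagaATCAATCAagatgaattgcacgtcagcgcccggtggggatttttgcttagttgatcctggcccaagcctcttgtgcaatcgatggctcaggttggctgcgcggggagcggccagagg
HOXD12: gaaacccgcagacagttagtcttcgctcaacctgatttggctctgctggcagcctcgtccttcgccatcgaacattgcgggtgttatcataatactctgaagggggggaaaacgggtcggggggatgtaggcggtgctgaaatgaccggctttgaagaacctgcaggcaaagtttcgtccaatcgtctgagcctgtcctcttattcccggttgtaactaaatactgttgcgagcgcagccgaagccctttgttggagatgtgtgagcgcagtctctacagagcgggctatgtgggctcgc
HOXD13: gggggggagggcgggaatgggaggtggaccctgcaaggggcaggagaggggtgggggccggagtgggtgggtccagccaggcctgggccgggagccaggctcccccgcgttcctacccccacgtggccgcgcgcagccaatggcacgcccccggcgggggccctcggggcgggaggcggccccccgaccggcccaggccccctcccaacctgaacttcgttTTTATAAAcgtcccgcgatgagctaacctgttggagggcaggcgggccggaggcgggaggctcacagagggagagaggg
HOXB1: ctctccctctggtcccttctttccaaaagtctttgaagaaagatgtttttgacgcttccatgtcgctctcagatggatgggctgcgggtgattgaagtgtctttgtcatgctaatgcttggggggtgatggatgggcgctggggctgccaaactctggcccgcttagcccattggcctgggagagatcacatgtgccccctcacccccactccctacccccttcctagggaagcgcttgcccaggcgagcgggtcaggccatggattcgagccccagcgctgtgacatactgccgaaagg

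HOXD11 held 1 match to TGATTNAT, and HOXD13 held 2 overlapping matches to TATAAA, 1 on each strand. The letters of the 3 motifs were in neither the HOXD12 nor the HOXB1 window. They were likewise in none of the windows of HOXA6, HOXD1, HOXD3 and HOXD4, which were not on, or of HOXA4, HOXA7, HOXA11, HOXA13 and HOXD10, which were on. That makes 6 of 7 covered genes not on and 5 of 13 on. The genes on had 20 windows and those not on 7, and the difference was not tested. Among all 35116 promoter windows of the table, 11.5% held TATAAA, 9.73% TTTATNG and 2.82% TGATTNAT. The table covered 20 of the 39 HOX genes in 27 windows, of which 5 held TATAAA, 7 TTTATNG and 2 TGATTNAT. Median GC content was 58.0% in the HOX windows and 58.7% in all windows, and the median number of CpG dinucleotides per window was 22 and 14. HOXB2, HOXB3, HOXB5 and HOXB8, the genes that changed in the knockdown, have no entry in that table.

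The clusters also hold microRNA genes, whose mature sequences show a seed shared across 3 clusters. They are given with the seed, bases 2 to 8, in capitals (RefSeq, GRCh38.p14). MIR196A1 of HOXB and MIR196A2 of HOXC give the same mature sequence, and MIR196B of HOXA gives one with the same seed.
hsa-miR-196a-5p: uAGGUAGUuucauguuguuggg
hsa-miR-196b-5p: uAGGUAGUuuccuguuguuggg
hsa-miR-10a-5p: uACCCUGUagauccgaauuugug

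A match to the miR-196 seed (ACTACCT in the transcript, written as DNA) lay in the annotated 3′ untranslated regions of 9 of the 39 HOX genes (23.1%), against 7.15% of 19127 genes with such a region. The miR-10a seed (ACAGGGT) matched 3 of the 39 (7.69%), against 12.8% of all genes. They included HOXA5, HOXA7, HOXA9, HOXB1, HOXB6, HOXB7, HOXB13 and HOXC8, and the matches are a description of letters only. Libraries primed on poly(A) tails do not measure mature microRNAs. At the hairpin genes there were 0 reads in every library for MIR196A1, MIR196A2 and MIR615, and at most 9 reads in any library for MIR10A, MIR10B and MIR196B.

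The libraries held 9311026, 6890868 and 7763190 assigned reads in knockdown 1, 2 and 3, against 4935096 and 8670141 in control 1 and 2. Levels are CPM, reads of a gene per 1000000 reads of the library, scaled with TMM, edgeR's correction for library composition, and lists of values follow the replicate numbers. Before TMM scaling, a count of 0 allows up to 0.322, 0.435 and 0.386 CPM in the knockdown libraries and 0.608 and 0.346 CPM in the controls. This covers counting error only, and with TMM scaling the limit in control 1 is 0.733 CPM. AKAP12 itself stood at 1157, 1061 and 1006 CPM in the knockdown, against 2864 and 1547 CPM in the controls. Its log2 fold change was -1.04 (SE 0.31, edgeR adjusted p = 0.0513), with -0.52 without control 1 and -1.42 without control 2. The controls lay far apart, with a chi-square per degree of freedom over genes of 82.0, against 4.58 to 7.19 between knockdown libraries. Of the 32 HOX genes tested, 3 differed by more than 2-fold between the highest and lowest knockdown library and 9 between the controls. TERT took 429, 2295 and 1532 CPM in the knockdown, against 89569 and 35119 CPM in the controls. Epithelial markers such as EPCAM (89.7, 81.9 and 107 CPM in the knockdown, 168 and 83.2 CPM in the controls) and the colon factor CDX2 were present. CDX1 had no read, and KRT20 and LGR5 were at or near 0. The 9 stromal markers summed to 534 to 602 CPM in the knockdown and to 450 and 566 CPM in the controls. The 7 blood markers summed to 67.9 to 86.7 CPM in the knockdown, below 95.8 and 97.2 CPM in the controls, and the part of such signal in any result was not tested.

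SW480 cells expressed HOX genes from all 4 clusters. A gene was called on where it reached 1 CPM in every library, and 29 of 39 HOX genes (74.4%) did so, against 47.4% of all 26485 genes. By cluster these were 9 of 11 HOXA, 8 of 10 HOXB, 7 of 9 HOXC and 5 of 9 HOXD genes. By position they were 3 of 8 anterior, 13 of 15 central and 13 of 16 posterior genes. Every member of paralog groups 5, 7, 8, 9, 10 and 11 was on, and no member of groups 2 and 12 was. In summed level HOXB led, with 524, 508 and 559 CPM in the knockdown and 1045 and 619 CPM in the controls. HOXA followed with 265, 267 and 288 CPM in the knockdown and 327 and 282 CPM in the controls. HOXC gave 187, 179 and 186 CPM in the knockdown and 237 and 214 CPM in the controls, and HOXD 69.7, 66.4 and 52.0 CPM in the knockdown and 77.0 and 67.1 CPM in the controls. The order HOXB, HOXA, HOXC, HOXD held in each of the 5 libraries. In bulk RNA less RNA in each cell and fewer cells expressing the gene cannot be told apart.

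**Figure D1:**
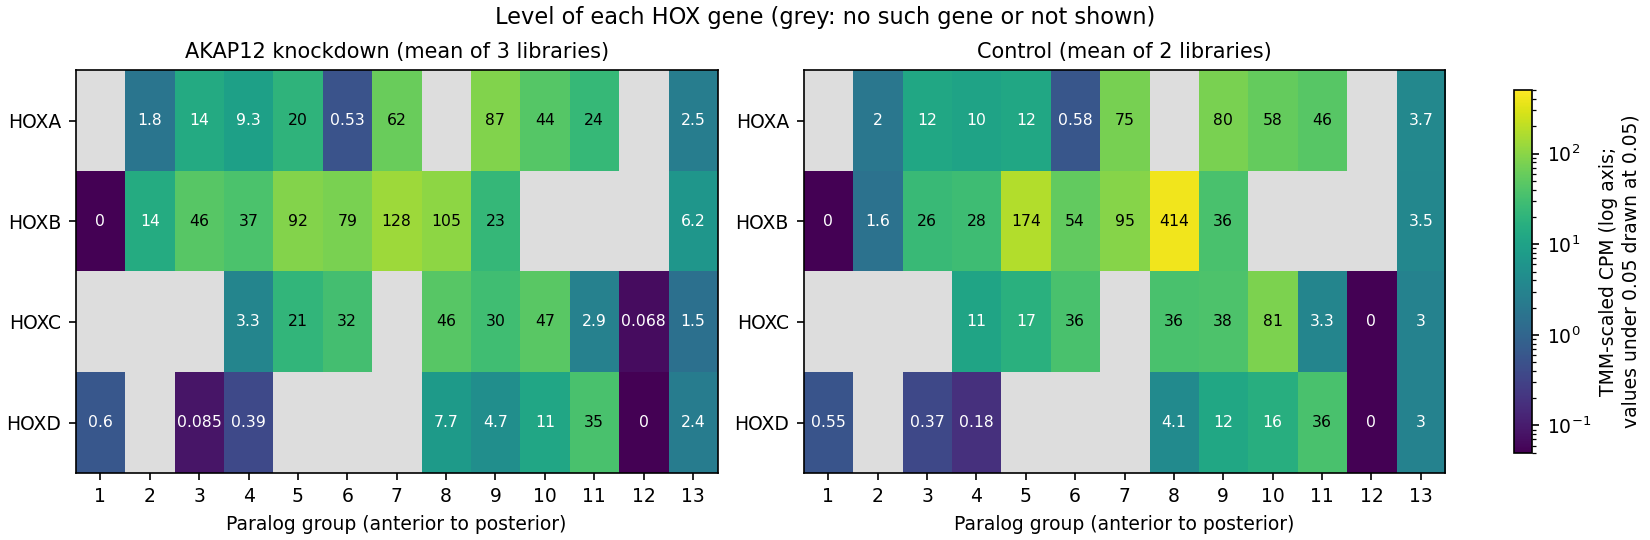
Mean TMM-scaled CPM of each HOX gene by cluster (rows) and paralog group (columns), in 3 AKAP12 knockdown libraries (left) and 2 control libraries (right), with a log colour scale and grey where the cluster has no such gene or the gene is not shown. Central and posterior genes carry most of the signal, HOXB1 and HOXD12 are at 0, and HOXB8 averages 105 CPM in the knockdown panel and 414 CPM in the control panel.

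Per kilobase of annotated exon, a scale that suits 3′ libraries poorly since they read mainly transcript ends, central HOXB genes stood highest. In the knockdown the mean levels were 93.9 CPM per kb for HOXB7, 57.7 for HOXB8, 50.4 for HOXB5, 47.3 for HOXB6 and 42.3 for HOXA9. In CPM, without length, HOXA9 (87.0 CPM) came before HOXB6 (79.3 CPM) in the knockdown, the reverse of that order. In the controls the order was HOXB8 at 227 CPM per kb, HOXB5 at 95.6, HOXB7 at 69.2, HOXC10 at 41.5 and HOXA9 at 38.8. HOXB8 thus stood below HOXB7 in the knockdown and above it in the controls. Their CPM values in the knockdown, 111, 101 and 103 for HOXB8 and 115, 119 and 151 for HOXB7, lay close together in knockdown 1, and in the controls HOXB8 was above HOXB7 in both libraries.

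At the other end, 2 genes were listed at 0 reads in every library. These were HOXB1, which patterns the hindbrain, and HOXD12, a posterior limb gene. Another 8 genes were low, with reads somewhere but without 1 CPM in every library. They were HOXA2, HOXA6, HOXB2, HOXC12, HOXC13, HOXD1, HOXD3 and HOXD4. HOXC12 had 2 reads in knockdown 1 and none elsewhere, and HOXA6, HOXD1, HOXD3 and HOXD4 stayed at or below 1.07 CPM in all libraries. HOXA2, a gene of the second pharyngeal arch, lay between 0.668 and 2.66 CPM in the knockdown and at 1.96 and 1.95 CPM in the controls. HOXC13, known for its part in hair formation, lay at 2.35, 0.935 and 1.23 CPM in the knockdown and at 2.93 and 3.09 CPM in the controls. The 7 genes that did not pass the filter on low counts and were not tested were HOXA6, HOXB1, HOXC12, HOXD1, HOXD3, HOXD4 and HOXD12, with 60 reads together over the 5 libraries. Whether these 7 differ between knockdown and control was not measurable at this depth.

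The question of the design, how expression differs between knockdown and control cells, was put to the 32 HOX genes that passed the filter. The knockdown was higher for HOXB2 and HOXB3 and lower for HOXB5 and HOXB8, by edgeR's quasi-likelihood test with Benjamini-Hochberg adjustment over 14536 genes. That makes 4 of 32 past an adjusted p of 0.05 (12.5%), 2 in each direction, where 22.6% of all tested genes passed, 11.2% higher and 11.4% lower. The share among HOX genes was thus below that among all genes. All 4 lie in HOXB, and HOXA, HOXC and HOXD had no gene past the threshold among their 23 tested. At an unadjusted p under 0.05 there were 11 of the 32. The share of all tested genes at that cut-off is not given here. It is above the 22.6% that passed the adjusted threshold. HOXA11, for instance, had an unadjusted p of 0.0440 and an adjusted p of 0.114 in edgeR. The first over the second is close to the share of all tested genes with an unadjusted p that small. By that measure the 11 of 32 are no excess of HOX genes, and they are a description only. Knockdown and control values did not overlap for 18 of the 32 (9 above both controls and 9 below), where 60.1% of all tested genes did not overlap. Leaving out any of the knockdown libraries left 0 HOX genes past the threshold, with 5 to 6 at an unadjusted p under 0.05, and left 0 of all genes, so 2 against 2 libraries gave edgeR no call here and that loss says nothing of the HOX genes as such. Over those fits the log2 fold change ran from 2.86 to 3.04 for HOXB2, 0.81 to 0.82 for HOXB3, -1.01 to -0.85 for HOXB5 and -2.02 to -1.95 for HOXB8. Fold changes with a control left out are given with the genes below.

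**Figure D2:**
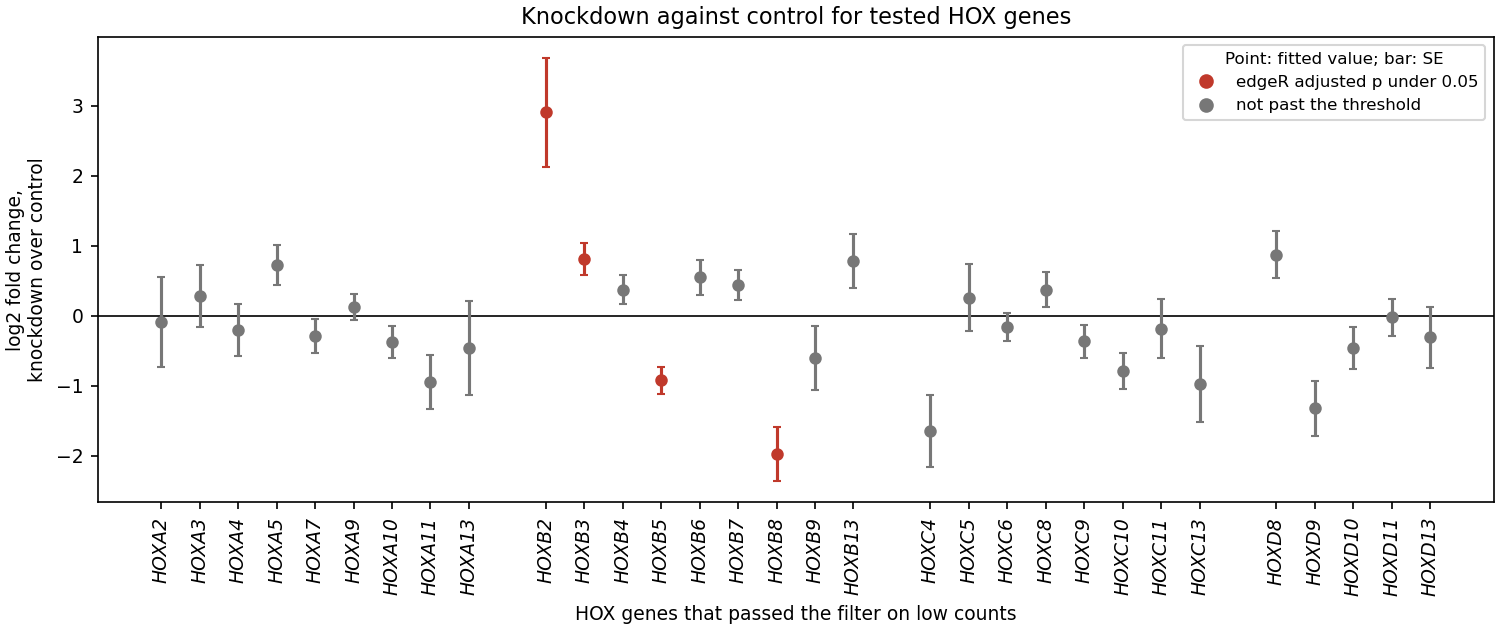
Log2 fold change, knockdown over control, for the HOX genes shown of the 32 that passed the filter, ordered by cluster and paralog group; points are edgeR's fitted values, bars are 1 SE, and red marks an adjusted p under 0.05. The red points are HOXB2 and HOXB3 above 0 and HOXB5 and HOXB8 below it.

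HOXB8, which holds myeloid progenitors in an immature state when overproduced, was the HOX gene with the largest fall among those that passed. It lies on chromosome 17 from 48612346 to 48614939 (hg38, minus strand). It stood at 111, 101 and 103 CPM in the knockdown libraries, against 604 and 223 CPM in the controls. All knockdown libraries were below both controls, which themselves differed by 2.71-fold. The log2 fold change was -1.97 (SE 0.39, edgeR adjusted p = 0.0221). Without control 1 it was -1.08, and without control 2 it was -2.53.

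HOXB5, a gene of gut and enteric nervous system development, stood at 102, 82.3 and 90.3 CPM in the knockdown and at 174.5 and 173.6 CPM in the controls (chromosome 17 from 48591257 to 48593741, minus strand). The controls were nearly equal here, and every knockdown library was lower. The log2 fold change was -0.92 (SE 0.19, edgeR adjusted p = 0.0234), and -0.92 and -0.93 without control 1 and without control 2. Reads were counted without regard to strand, and 4.01% of the exon bases of HOXB5 are shared with the antisense gene HOXB-AS3.

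HOXB2, a hindbrain segment gene, had 122, 109 and 132 reads in the knockdown, against 0 and 28 reads in the controls (chromosome 17 from 48542656 to 48545031, minus strand). As levels these were 12.5, 14.6 and 16.2 CPM in the knockdown and 0 and 3.21 CPM in the controls. The groups did not overlap, and HOXB2 was on in the knockdown libraries but not in control 1. Pooled reads of the knockdown were 4.46-fold higher than control 2 and at least 19.5-fold higher than control 1, taking 3 reads in control 1 as the limit that its count of 0 allows. The fitted log2 fold change was 2.90 (SE 0.78, edgeR adjusted p = 0.0406), a value that depends on the treatment of a count of 0, and 2.16 without control 1. With library totals as the only scaling, the adjusted p was 0.0542.

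HOXB3, its neighbour at the anterior end, stood at 45.9, 45.6 and 45.8 CPM in the knockdown, against 21.8 and 30.1 CPM in the controls (chromosome 17 from 48548870 to 48574448, minus strand). The knockdown libraries differed by less than 1 CPM, and both controls were lower. Its log2 fold change was 0.81 (SE 0.23, edgeR adjusted p = 0.0443), with 0.60 without control 1 and 1.07 without control 2. With no filter on low counts the edgeR adjusted p was 0.0513. HOXB3 shares 7.71% of its exon bases with the antisense gene HOXB-AS1.

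The other tested HOXB genes did not pass. HOXB4, which supports blood stem cell growth, stood at 35.2, 37.7 and 36.7 CPM in the knockdown and at 30.3 and 26.2 CPM in the controls. HOXB6 stood at 74.4, 75.0 and 88.4 CPM in the knockdown and at 65.5 and 43.4 CPM in the controls. Its edgeR adjusted p was 0.142, or 0.0468 with library totals as the only scaling. HOXB6 shares 9.90% of its exon bases with HOXB-AS3. By read counts, at most 73.9%, 74.2% and 67.5% of its reads in the knockdown and 42.2% and 100% in the controls can be common to both. HOXB7 stood at 115, 119 and 151 CPM in the knockdown and at 91.2 and 98.0 CPM in the controls. In these 3 central genes all knockdown libraries lay above both controls, with log2 fold changes of 0.37, 0.55 and 0.44. HOXB9, a thoracic patterning gene in mouse, overlapped at 22.0, 27.1 and 21.1 CPM in the knockdown and 55.0 and 17.2 CPM in the controls. HOXB13, a gene of prostate and distal gut, stood at 5.32, 6.01 and 7.36 CPM in the knockdown and at 2.69 and 4.35 CPM in the controls. The knockdown was above both controls for HOXB13, but its log2 fold change of 0.78 had an edgeR adjusted p of 0.172.

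**Figure D3:**
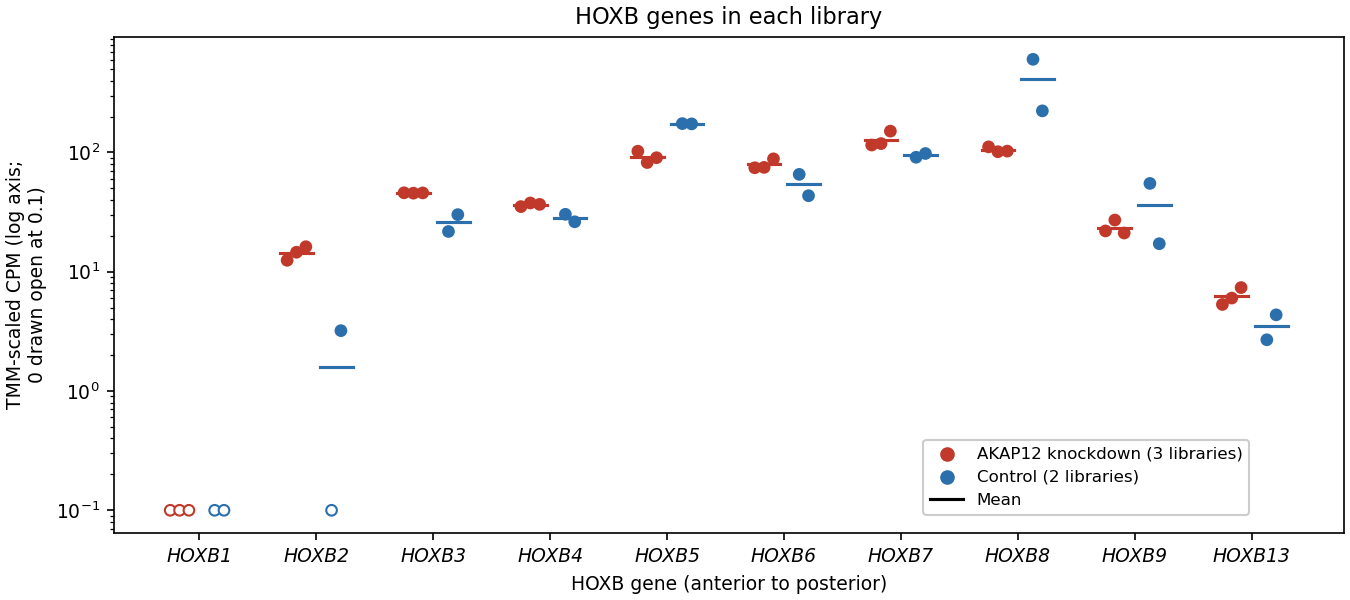
TMM-scaled CPM (log axis) of the 10 HOXB genes in each library, knockdown in red left of control in blue, with lines at the means and open circles at the foot of the axis for 0 reads. HOXB2 and HOXB3 sit higher in the knockdown, HOXB5 and HOXB8 sit lower, and HOXB9 overlaps.

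Within HOXB the division of reads differed between the groups. HOXB8 took 21.2% of the HOXB reads in knockdown 1 (95% Wilson interval 20.1 to 22.4), 19.95% in knockdown 2 (18.7 to 21.3) and 18.3% in knockdown 3 (17.2 to 19.5). In the controls it took 57.8% (56.3 to 59.3) in control 1 and 36.0% (34.8 to 37.3) in control 2. The intervals cover counting error only, with reads taken as independent molecules, and the controls lay outside each other's interval. The shares averaged 19.8% ± 1.45 in the knockdown (SD, n = 3) and 46.9% in the controls, and the groups did not overlap. These shares are a description, since HOXB8 was singled out for its fall and an exact two-sided permutation test over the 10 arrangements of 3 and 2 libraries cannot go below p = 0.1. The anterior genes HOXB1 to HOXB3 took 11.1%, 11.8% and 11.1% of HOXB reads in the knockdown, against 2.08% and 5.38% in the controls. Shares depend on each other, since a lower count of HOXB8 raises the shares of the rest, but HOXB2 and HOXB3 were also higher as levels.

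**Figure D4:**
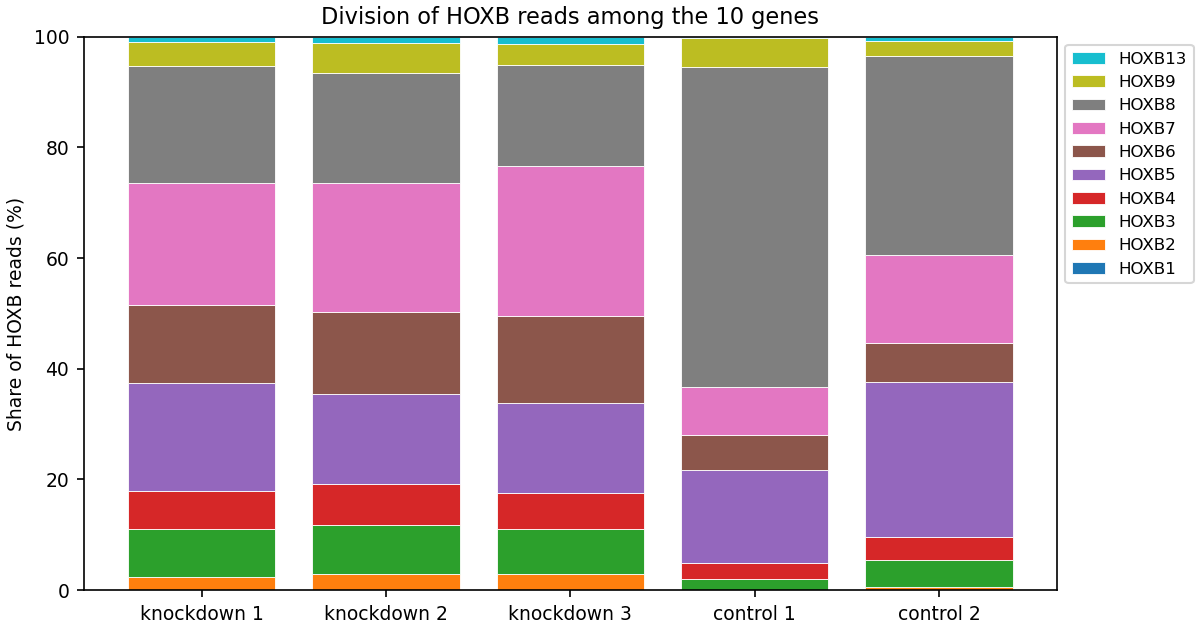
Share of HOXB reads (percent) taken by each of the 10 HOXB genes in each library, 3 knockdown libraries left of 2 controls, stacked with anterior genes at the bottom. The HOXB8 segment spans 18.3% to 21.2% in the knockdown, 57.8% in control 1 and 36.0% in control 2.

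Among the 10 tested HOXA genes none passed in edgeR or in DESeq2. HOXA5, needed for lung development in mouse, stood at 16.3, 18.8 and 25.5 CPM in the knockdown and at 12.5 and 12.0 CPM in the controls, without overlap (log2 fold change 0.72, SE 0.28, edgeR adjusted p = 0.102). HOXA3, a gene of thymus and parathyroid development, overlapped at 9.91, 15.6 and 16.7 CPM in the knockdown and 16.9 and 6.87 CPM in the controls. Both controls bracketed the knockdown for HOXA3 and again for HOXA4, at 8.48, 10.2 and 9.21 CPM in the knockdown and 6.60 and 14.3 CPM in the controls.

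The central and posterior HOXA genes carried the bulk of that cluster. HOXA7 stood at 65.5, 61.3 and 58.1 CPM in the knockdown and at 57.7 and 92.6 CPM in the controls. HOXA9, a gene of blood progenitors and of acute leukaemia, was among the steadiest, with 84.4, 82.6 and 93.9 CPM in the knockdown and 85.5 and 74.1 CPM in the controls (log2 fold change 0.12, SE 0.19). Both are uncertain as single genes: 74.6% of the exon bases of HOXA7 lie under the antisense gene HOXA-AS3, and HOXA9 shares 72.6% with the read-through gene HOXA10-HOXA9. HOXA10 and HOXA11, which act in the uterus and in limbs, were lower in the knockdown than in both controls. HOXA10 stood at 41.6, 45.7 and 45.5 CPM in the knockdown and 68.4 and 46.8 CPM in the controls, and shares 19.3% of its exon bases with HOXA10-HOXA9 and 19.1% with HOXA10-AS. HOXA11 stood at 23.8, 23.0 and 24.7 CPM in the knockdown and 67.0 and 25.6 CPM in the controls, and its log2 fold change of -0.95 (edgeR adjusted p = 0.114) was -0.10 without control 1. HOXA13, which patterns the hindgut and digits, was low at 3.27, 1.47 and 2.70 CPM in the knockdown and 5.87 and 1.49 CPM in the controls.

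None of the 8 tested HOXC genes passed in edgeR. The closest was HOXC4, the most anterior HOXC gene, at 2.96, 2.94 and 4.05 CPM in the knockdown and 16.1 and 5.27 CPM in the controls, without overlap. Its log2 fold change was -1.65 (SE 0.51), with an edgeR adjusted p of 0.0589 and a DESeq2 adjusted p of 0.0243, and it was -0.67 without control 1. HOXC5 stood at 23.4, 21.9 and 19.0 CPM in the knockdown and at 7.58 and 27.4 CPM in the controls, which bracketed the knockdown. HOXC6 stood at 31.6, 33.8 and 30.1 CPM in the knockdown, below 35.2 and 35.8 CPM in the controls (log2 fold change -0.16, SE 0.20). HOXC4, HOXC5 and HOXC6 share exon sequence of 563 bases, and reads there were counted for each of them. By their lowest count, at most 29, 22 and 33 reads in the knockdown and 31 and 46 reads in the controls can be common to all 3. For HOXC4 that limit is 100% of its reads in every knockdown library and in control 2, and 47.0% in control 1. How much of the HOXC4 difference comes from the shared exon was not tested.

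HOXC8, a thoracic gene, stood at 50.3, 42.2 and 46.4 CPM in the knockdown and at 27.9 and 43.4 CPM in the controls. HOXC9 stood at 24.3, 29.4 and 35.7 CPM in the knockdown and at 41.3 and 35.6 CPM in the controls. Both overlapped between the groups. HOXC10, a lumbar gene that acts in hindlimb motor neurons, stood at 48.2, 44.2 and 47.9 CPM in the knockdown and at 102 and 60.0 CPM in the controls, without overlap. Its log2 fold change was -0.79 (SE 0.26, edgeR adjusted p = 0.0680), and -0.36 without control 1. HOXC11 was low in all libraries, at 3.37, 3.21 and 2.09 CPM in the knockdown and 3.42 and 3.21 CPM in the controls.

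The HOXD cluster was on only from HOXD8 onwards, with HOXD12 as the gap. HOXD8 stood at 7.97, 6.68 and 8.35 CPM in the knockdown and at 3.42 and 4.81 CPM in the controls, all knockdown libraries being higher (log2 fold change 0.87, SE 0.34, edgeR adjusted p = 0.1002). Its neighbour HOXD9 lay the other way, at 5.83, 4.68 and 3.68 CPM in the knockdown and at 15.9 and 8.24 CPM in the controls. The log2 fold change of HOXD9 was -1.32 (SE 0.39), with an edgeR adjusted p of 0.0522 and a DESeq2 adjusted p of 0.0307. Posterior HOXD genes shape limbs and the genital and hindgut region. HOXD10 stood at 14.3, 8.69 and 11.4 CPM in the knockdown and at 17.6 and 14.2 CPM in the controls. HOXD11, the highest of its cluster, stood at 38.3, 42.2 and 25.5 CPM in the knockdown and at 35.2 and 36.5 CPM in the controls, a difference of -0.02 in log2 (SE 0.27) whose sign depended on the setting. HOXD13 stood at 3.17, 2.00 and 2.09 CPM in the knockdown and at 2.93 and 3.09 CPM in the controls. HOXD10, HOXD11 and HOXD13 overlapped between the groups.

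By position the fitted values differed in sign. The median log2 fold change was 0.81 over 5 anterior, 0.26 over 13 central and -0.42 over 14 posterior genes, beside -0.17 over all 32 and 0.04 over all genes tested. Values were above 0 for 4 of 5 anterior and 7 of 13 central genes and below 0 for 12 of 14 posterior genes, where 51.5% of all tested genes were above 0 and 48.5% were not. None of the posterior genes passed the threshold. Of the 14, 1 lay above and 5 below both controls, where 31.6% of all tested genes lay above and 28.5% below. The anterior median was 0.78 without control 1 and 1.02 without control 2. The posterior median was -0.12 without control 1 and -0.62 without control 2. The central median was -0.17 without control 1 and 0.27 without control 2. These counts and medians are descriptions with no test of position.

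The authors' deposited table of the same comparison, whose direction the file does not state, had an adjusted p for 34 HOX genes, of which 6 (17.6%) were under 0.05, where 25.3% of all its genes were. They were HOXB2 and HOXB3 with positive signs and HOXB5, HOXB8, HOXC4 and HOXD9 with negative signs in the authors' deposited table. DESeq2, run again on the counts, called the same number, 6 of 32 (18.8%), where it called 28.1% of all genes. Each of the 32 tested HOX genes had the same sign in the authors' deposited table as in edgeR.

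Of the 9 TALE genes whose proteins partner HOX proteins, 8 were tested and none passed in edgeR. Their median log2 fold change was 0.71, beside 0.04 over all genes, and it was 0.19 without control 1 and 1.54 without control 2. PBX3 stood at 34.5, 38.5 and 40.8 CPM in the knockdown and at 10.8 and 26.1 CPM in the controls (log2 fold change 1.013, SE 0.37, edgeR adjusted p = 0.0890), with 0.54 without control 1 and 1.81 without control 2. Of 8 ParaHox and cluster-linked homeobox genes only CDX2 and PDX1 were tested, and neither passed. CDX1, CDX4, GSX1, GSX2 and EVX2 had no read in any library. CDX2, a colon identity factor that acts on HOX genes, stood at 27.1, 36.6 and 35.1 CPM in the knockdown and at 18.6 and 25.8 CPM in the controls.

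Of 15 tested non-coding and read-through genes in the clusters, 1 was higher and 1 lower, 13.3% beside 22.6% of all tested genes. HAGLROS, a non-coding gene on chromosome 2 from 176178166 to 176179009 (hg38, plus strand) in the HOXD cluster, stood at 12.5, 11.9 and 12.6 CPM in the knockdown, against 0.733 and 1.72 CPM in the controls. All knockdown libraries were far above both controls, by 3.19 in log2 (SE 0.41, adjusted p = 0.0131 in edgeR). Without control 1 that value was 2.84, and without control 2 it was 4.04. HOXA11-AS, antisense to the HOXA11 region, stood at 1.84, 1.47 and 1.84 CPM in the knockdown, against 6.11 and 4.01 CPM in the controls (log2 fold change -1.52, SE 0.42, edgeR adjusted p = 0.0436). That call was lost in limma-voom (adjusted p = 0.0523) and with library totals as the only scaling in edgeR (0.0625). HOTAIR, a non-coding RNA of the HOXC cluster, stood at 11.6, 9.62 and 16.2 CPM in the knockdown and at 29.6 and 17.9 CPM in the controls, and its adjusted p in edgeR was 0.0873.

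Of 19 neighbouring genes within 200 kb outside the clusters, 10 were tested, 1 was higher and 1 lower, a share close to the 22.6% of all tested genes. MTX2, a mitochondrial import gene beside HOXD, stood at 30.5, 29.1 and 41.1 CPM in the knockdown, against 5.13 and 4.58 CPM in the controls (log2 fold change 2.80, SE 0.29, edgeR adjusted p = 0.0126). UBE2Z, a ubiquitin-conjugating enzyme gene beside HOXB, stood at 173, 158 and 154 CPM in the knockdown, against 740 and 436 CPM in the controls (log2 fold change -1.86, SE 0.26, edgeR adjusted p = 0.0141). The groups overlapped for neither gene, and MTX2 showed near-equal controls.

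Of 20 tested Polycomb genes, 4 were higher and 2 lower (30.0% in all, where 22.6% of all tested genes passed, with a median log2 fold change of 0.26). EED, a core subunit of the H3K27 methyltransferase complex, stood at 65.5, 73.1 and 60.8 CPM in the knockdown, against 18.8 and 24.3 CPM in the controls (log2 fold change 1.62, edgeR adjusted p = 0.0141). PHC2, of the other Polycomb complex, was higher too, by 2.93 on the log2 scale (edgeR adjusted p = 0.0233), at 62.6 to 80.2 CPM in the knockdown and 2.69 and 14.8 CPM in the controls, with 2.25 without control 1 and 4.70 without control 2. RING1, the ubiquitin ligase of that complex, stood at 31.2, 28.2 and 30.2 CPM in the knockdown, against 70.6 and 70.2 CPM in the controls (-1.24, edgeR adjusted p = 0.0153). The knockdown did not overlap the controls for any of these 3.

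Of 13 tested genes for Trithorax proteins and H3K27 demethylases, 3 were higher and 2 lower (38.5%, beside 22.6% of all tested genes). Their median log2 fold change was -0.25, with -0.36 without control 1 and -0.67 without control 2. WDR5, a shared subunit of the H3K4 methyltransferase complexes, stood at 107, 114 and 106 CPM in the knockdown, against 48.1 and 50.2 CPM in the controls (log2 fold change 1.15, edgeR adjusted p = 0.0170). ASH2L and DPY30, subunits of the same complexes, were higher by 1.71 and 0.93 (edgeR adjusted p = 0.0217 and 0.0375). RBBP5, the remaining core subunit, was lower at 32.2, 30.3 and 27.3 CPM in the knockdown, against 62.1 and 46.8 CPM in the controls. The fifth, CTCF, a boundary factor, is named after its value was seen, at -0.64 on the log2 scale (adjusted p = 0.0467 in edgeR). With library totals as the only scaling, the edgeR adjusted p was 0.126 for CTCF and 0.0660 for RBBP5.

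Retinoic acid switches on HOX clusters from the anterior end in the embryo. Of 8 tested genes of retinoid signalling, 2 were higher and 2 lower (4 of 8, beside 22.6% of all tested genes), with a median log2 fold change of -0.17. CRABP2, which carries retinoic acid to its receptors, stood at 230, 190 and 193 CPM in the knockdown, against 59.9 and 49.9 CPM in the controls (log2 fold change 1.90, edgeR adjusted p = 0.0131). ALDH1A1, an enzyme that makes retinoic acid, stood at 7.26, 7.62 and 6.26 CPM in the knockdown, against 0.978 and 2.52 CPM in the controls. ALDH1A1 was higher by 1.90 in log2 (edgeR adjusted p = 0.0320), with 1.48 without control 1 and 2.82 without control 2. ALDH1A3, a second such enzyme, was lower at 31.6, 31.7 and 33.5 CPM in the knockdown, against 70.9 and 60.8 CPM in the controls. The receptor gene RARG stood at 16.7, 14.4 and 15.3 CPM in the knockdown, against 73.1 and 33.1 CPM in the controls, a fall of 1.77 in log2 (adjusted p = 0.0217 in edgeR) that was -1.09 without control 1. Any link between these genes and the HOX values was not tested.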

How the data were processed

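Gene counts of 5 libraries were used, 3 knockdown and 2 control. The deposited counts were whole-number reads per gene made by the authors with featureCounts 1.6.2 at exons, per the file headers, without strand and with a read counted for every gene it overlaps. Per the submitters' processing notes, STAR 2.7 and the build hg38 were used, with DESeq2 1.22. The authors' deposited table holds a log2 fold change, a mean signal, a test score and p-values per gene.

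Fits used edgeR 4.0.16 in R 4.3.3 (filterByExpr with a minimum count of 10, TMM, quasi-likelihood test, two-sided, adjusted over 14536 genes, threshold 0.05). Each SE was taken as the size of the fitted change over the root of its F value. Alternatives were DESeq2 1.42.0, limma 3.58.1 with voom, other scalings and filters, the replicate number as a block, and each library left out. Counts were simulated with the mean levels and library sizes of this comparison, and 14264 genes were fitted. Of these, 84.0% of 94 genes changed 4-fold and 12.1% of 99 changed 2-fold were recovered, and 8 of 14071 unchanged genes were called. The simulation gave each gene the same spread in both groups and changed few genes. The real controls lay much further apart than the knockdown libraries, so these rates need not hold for these data.

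The HOX genes and the other lists were chosen with earlier results of these data known. Values per library are given for HOX genes that were on or past the threshold. Of the other lists, members past the threshold are named, at most 4 per list by smallest p; 2 genes that these rules name are not reported here, though counts include them; those named besides them (PBX3, CDX2, HOTAIR, CTCF) and the neighbours were chosen after values were seen. Marker lists not described above had 1 of 9 colon genes higher (KRT8), 1 of 9 stromal genes lower (PDGFRA), 3 of 7 blood genes lower and none of 2 endothelial or 3 neuronal genes past the threshold in edgeR.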

Additional observations from a re-analysis of the deposited data

How the results depend on the processing

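Against 4 HOX genes past the threshold, DESeq2 gave 6, limma-voom and RLE scaling 4, library totals alone 4, no filter 5, a stricter filter 5 and removal of TERT and short RNA genes 5. Leaving out single libraries gave 0 to 16 (8 without control 1, 16 without control 2), where the lone control is assumed to vary like the knockdown. For all genes the count was 3282 and ran from 0 to 8811 without single libraries; with a knockdown library left out, 3774 to 4109 genes had an unadjusted p under 0.05. With the replicate number as a block, 0 HOX genes passed, 4 had an unadjusted p under 0.05, and 210 genes of all passed. Deviations of same-numbered libraries correlated at -0.05 and -0.08, so no pairing by number was seen. With 2 controls that lie far apart this check cannot exclude a pairing. The block moved no HOX value across 0 except HOXD11 (0.17). The AKAP12 log2 fold change passed at -1.06 in DESeq2 (adjusted p = 0.0114) and -0.98 in limma-voom (0.0453). In edgeR it passed at -0.996 with no filter (0.0310), -1.06 with the stricter filter (0.0481) and -1.04 without TERT and short RNA genes (0.0482). AKAP12 did not pass in edgeR with library totals alone (adjusted p = 0.0716) or with the replicate block (0.298). Its log2 fold change ran from -1.42 to -0.52 over single libraries left out. Signs of HOX genes turned with library totals alone in HOXA2 (0.10), HOXC6 (0.048), HOXC11 (0.012) and HOXD11 (0.19), a scaling that moved the median of all genes by 0.20, with limma-voom in HOXA13 (0.0098) and with no filter in HOXD11 (0.0075). With single libraries left out, HOXA2 ran from -0.48 to 0.28, HOXA3 from -0.28 to 1.03, HOXA4 from -0.63 to 0.48, HOXA7 from -0.58 to 0.092, HOXA13 from -1.22 to 0.75, HOXB9 from -1.24 to 0.45, HOXC5 from -0.35 to 1.496 and HOXD11 from -0.17 to 0.17. The causes were not tested. The count of 29 genes on was 31 at 0.5 CPM, 28 at 2 CPM, 21 at 5 CPM, and 32 where 3 of 5 libraries sufficed.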
